A study of Caenorhabditis elegans with 4 samples.

Results

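Broad ZHP-3 peaks are the 483 intervals of 1500 bp or more, on the 6 nuclear chromosomes, in the combined peak list of a chromatin immunoprecipitation sequencing (ChIP-seq) series from the nematode Caenorhabditis elegans. They were chosen by width alone, which is the last base minus the first base plus 1. They made up 4.09% of the 11796 nuclear peaks in that list (11798 with the mitochondrial ones). The other 11313 nuclear peaks, all under 1500 bp, are called narrower peaks here. Because width chose them, the widths and scores of the broad peaks are given as a description.

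The protein ZHP-3 carries a RING finger, acts in germ cells during meiosis and is related to the yeast protein Zip3. In meiotic prophase it loads along the synaptonemal complex, the protein structure that joins paired homologous chromosomes, and later becomes restricted towards the crossover site. It is needed for crossovers, which in this species fall mostly on chromosome arms. A broad peak in a peak list is a stretch over which the caller found continuous enrichment, while a narrow one marks a local summit.

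The series has 2 ChIP samples with an antibody against ZHP-3 and 2 input samples, each pair numbered 1 and 2. All 4 samples came from hermaphrodites that carried fem-2(b245), grown at 20 °C. This is a temperature-sensitive allele, on chromosome III, of a sex-determination gene that encodes a protein phosphatase. The stage label names young adults with a germline, whereas the growth protocol describes gravid animals. Chromatin was from whole animals fixed with 1% formaldehyde for 10 min, so germline and somatic nuclei were mixed. No strain without the allele and no strain without ZHP-3 is among the samples. The labels do not say whether the replicates came from separate cultures, so the spread between them may be technical.

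A peak list was used for each ChIP replicate, besides a list of the whole series. That list is called combined here because its peak names carry no replicate number, and which reads entered it is not stated. Replicate 1 held 6537 peaks and replicate 2 held 6086. Read counts are not part of these lists, so depth is unknown, and the input libraries were not analysed here. With 1 combined list and 2 replicates of 1 group, no test between groups of samples could be made. Shares below carry exact Clopper-Pearson 95% intervals, which cover counting error only and treat peaks as independent. Values for broad and narrower peaks are set side by side as descriptions.

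The broad peaks covered 1.41 Mb, which was 24.2% of the bases in all nuclear peaks and 1.40% of the chromosome length spanned by the list. Their median width was 2200 bp, with quartiles of 1683 and 3089 bp. The narrower peaks had a median width of 310 bp, with quartiles of 222 and 466 bp. The widths had a long upper tail. Of the 483 peaks, 276 were 2000 bp or wider, 133 were 3000 bp or wider, 48 were 5000 bp or wider and 12 were 10000 bp or wider. The 133 peaks of 3000 bp or more held 50.6% of the bases of the broad peaks. The threshold cut through a continuous range. The narrowest broad peaks were 1500, 1501 and 1503 bp wide, and the widest peaks outside were 1499 and 1496 bp wide.

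Peak callers give each interval a score. The scale is not stated in the files, so scores were used as ranks within a list. The median score of the broad peaks was 56.4, at the 90.7 percentile of the combined list, and that of the narrower peaks was 9.34, at the 48.0 percentile. Of the broad peaks, 248 (51.3%) were at or above the 90 percentile of scores, a share that was 10% over all nuclear peaks. Only 12 broad peaks scored below the median of the list. Within the broad peaks, width hardly followed score (Spearman's rho 0.12 over 483 peaks). Among the narrower peaks rho was 0.63 over 11313 peaks. Both values are across peaks of 1 list, and peaks of a list are not independent replicates.

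The first comparison asked whether broad peaks recurred in the replicate lists. Of the 483 broad peaks, 458 (94.8%, interval 92.5% to 96.6%) overlapped a peak in both replicates by 1 bp or more. Of the narrower peaks, 3987 (35.2%, 34.4% to 36.1%) did, and over all nuclear peaks the share was 37.7%. Among the higher-scoring 50% of the list the shares were 95.7% of broad and 69.2% of narrower peaks. A wide interval meets other intervals more often by its width alone, and the combined list comes from the same experiment. Replicate 1 alone was met by 20 broad peaks (4.14%, against 12.3% of all nuclear peaks) and replicate 2 alone by 4 (0.83%, against 8.29%). The only broad peak in neither list lay in the centre of chromosome II (6075803 to 6077306, on the WS220 build as are all positions here). It was 1504 bp wide, close to the threshold, and scored 12.2. In neither replicate were 4916 narrower peaks (43.5%) and 41.7% of all nuclear peaks.

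The share found in both replicates climbed with width also below 1500 bp. It was 2.93% for peaks under 250 bp, 41.2% from 250 to 499 bp, 66.9% from 500 to 999 bp and 85.4% from 1000 to 1499 bp. Above the threshold it was 93.7% for peaks from 1500 to 2999 bp and 97.7% for those of 3000 bp or more. No step was visible at 1500 bp.

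**Figure D1:**
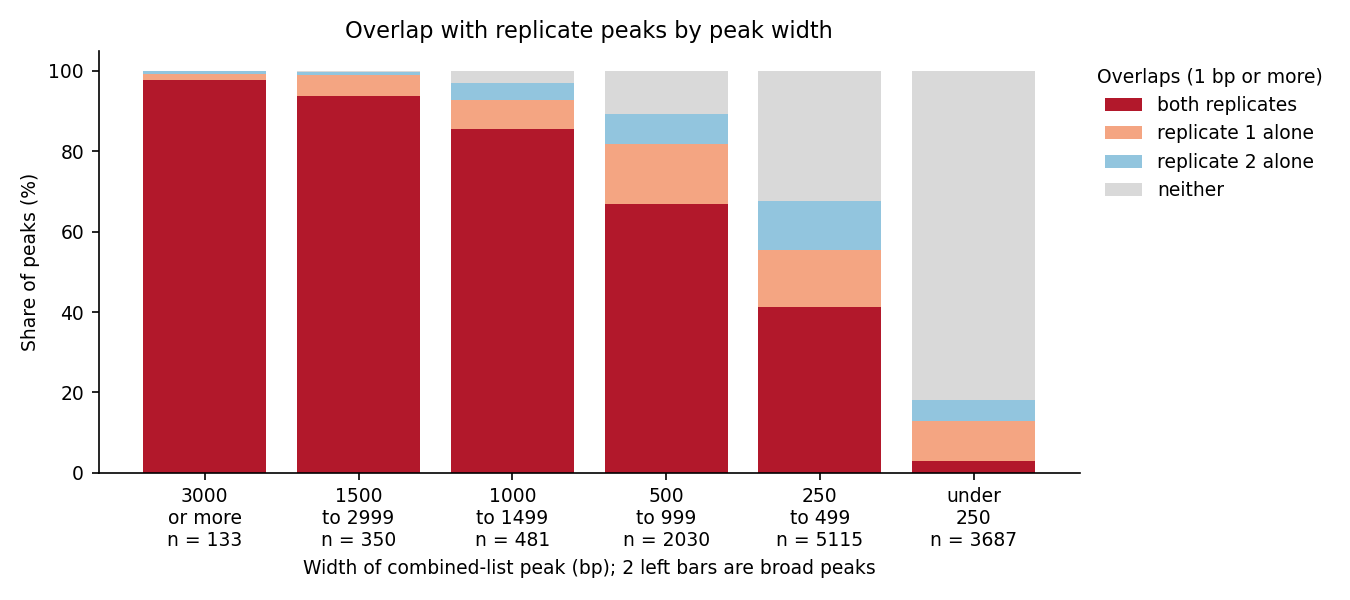
Share of combined-list peaks (vertical axis, %) that overlap a peak of both replicates, of 1 replicate alone or of neither, for 6 classes of peak width (horizontal axis, bp, widest on the left). The 2 left bars are the broad peaks, with 97.7% and 93.7% in both replicates, against 2.93% in the class under 250 bp.

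Overlap by a single base says little about how far a broad peak was filled in each replicate. Peaks of replicate 1 covered 86.4% of the bases of the broad peaks and those of replicate 2 covered 79.1%, a mean of 82.7% ± 5.18 (SD, n = 2). For the narrower peaks the shares were 50.6% and 45.9%, a mean of 48.3% ± 3.32 (SD, n = 2). In both replicates the share for broad peaks was above that for narrower ones. The SD is the spread of 2 replicates against the same combined list and does not measure the difference between the sets of peaks. Among narrower peaks coverage was lowest in the smallest, where those under 250 bp were covered over 12.6% in replicate 1 and 7.64% in replicate 2. Near the threshold the shares were closer, at 82.7% and 69.7% for peaks from 1500 to 2999 bp and 71.7% and 61.2% for peaks from 1000 to 1499 bp, in replicates 1 and 2. For the peaks of 3000 bp or more it reached 90.1% in replicate 1 and 88.2% in replicate 2. Of the broad peaks, 194 (40.2%) were covered over 90% or more of their bases in both replicates, compared with 1353 (11.96%) of the narrower peaks and 13.1% of all nuclear peaks.

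Coverage was uneven between the replicates. Replicate 1 covered more than replicate 2 in 313 broad peaks and less in 158, with equal shares in 12. The coverage of replicate 1 was higher by over 50 percentage points in 44 broad peaks, and that of replicate 2 in 7. Over all 11796 nuclear peaks, replicate 1 covered more in 3728 and less in 2620, with equal shares in 5448. There the coverage of replicate 1 was higher by over 50 points in 1341 peaks, and that of replicate 2 in 894. Uneven coverage was therefore not particular to broad peaks. An example is a peak of 8751 bp in the centre of the X (7352450 to 7361200, score 15.7). In replicate 1 it was met by 17 peaks that covered 87.9% of it. In replicate 2 it was met by 4 peaks that covered 13.8%, the widest of them 446 bp.

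**Figure D2:**
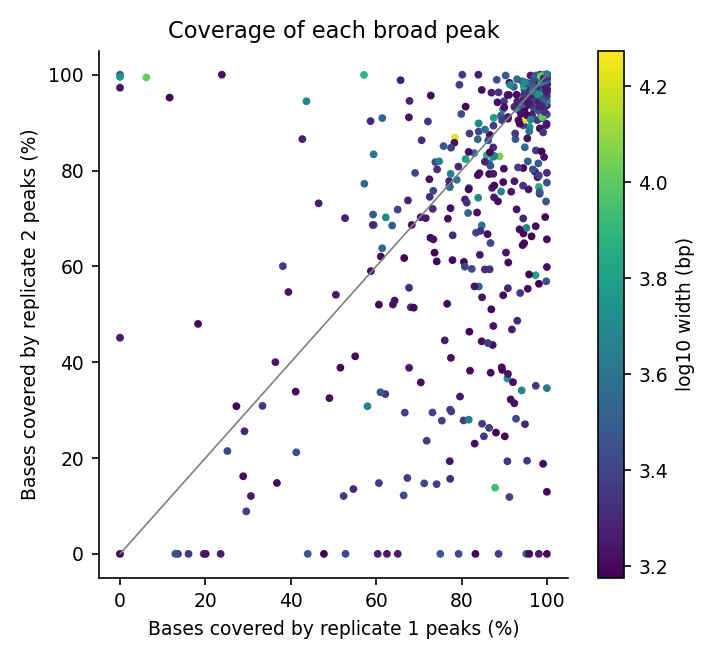
Each point is 1 of the 483 broad peaks, placed by the share of its bases inside replicate 1 peaks (horizontal axis, %) and replicate 2 peaks (vertical axis, %), with log10 width as colour; the line marks equal shares. Points crowd in the upper right corner, where 194 peaks have 90% or more in both, and more lie below the line (313) than above it (158).

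Width itself was then compared with the replicate lists. The width rule did not use them, but the combined list comes from the same experiment. A place that is wide in both replicates is thus likely to be wide in the combined list, and the shares below are descriptions. Replicate 1 held 309 peaks of 1500 bp or more (4.73% of its peaks) and replicate 2 held 266 (4.37%). A broad peak of the combined list was overlapped by 296 (95.8%) of those in replicate 1 and 260 (97.7%) of those in replicate 2. Seen from the combined list, 274 broad peaks (56.7%) overlapped such a wide peak in replicate 1 and 233 (48.2%) in replicate 2. In both replicates 213 (44.1%, interval 39.6% to 48.7%) did, against 1.91% of all nuclear peaks. Only 12 of the narrower peaks met a wide peak in both replicates. The other broad peaks were wide in the combined list but lacked a peak of that width in at least 1 replicate. The combined and replicate lists carry different caller labels (MACS v2 and MACS). Whether the calling bears on this difference in width was not tested.

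The pieces gave a way to describe how the broad peaks differ among themselves. In 178 broad peaks (36.9%), exactly 1 peak was found in each replicate, while 32.8% of all nuclear peaks had this form. In 158 (32.7%) each replicate had 2 or more peaks, and in 122 (25.3%) 1 replicate had a single peak and the other had several. The remaining 25 (5.18%) lacked a peak in at least 1 replicate, whereas only 37.7% of all nuclear peaks had a peak in both. For the class with several in each and the mixed class, no share over all nuclear peaks is given here. A wider interval meets more replicate peaks by its width alone. Median widths were 2172 bp for 1 peak in each, 2382 bp for several in each, 2078 bp for the mixed class and 1900 bp for those missing from a replicate. The median score was 83.6 for broad peaks with 1 peak in each replicate, 38.95 for those with several in each, 42.9 for the mixed class and 11.9 for those missing from a replicate. The widest interval of all, 18776 bp, was in the class with several peaks in each replicate.

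The top replicate scores could also be set against the broad peaks. Among the broad peaks named below, many replicate scores were 3100 and none was higher. This value may be a ceiling, so peaks at 3100 are not ranked among themselves. In replicate 1, 133 broad peaks had a peak with a score of 3100 or more, and this list held 173 such peaks in all. In replicate 2, 162 broad peaks did, and its list held 199. Both conditions were met by 113 broad peaks (23.4%, interval 19.7% to 27.4%), compared with 1.13% of all nuclear peaks. The counts of 133 and 162 are of broad peaks, whereas 173 and 199 are of replicate peaks. A broad peak can meet several replicate peaks, so these counts are not parts of one another. For a single replicate no share over all nuclear peaks is given here. The best replicate peak on a broad peak had a median percentile of 93.0 in replicate 1 and 93.6 in replicate 2.

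Where each replicate had a single peak, its edges could be compared. Over the 178 broad peaks of this kind the same edge differed by a median of 29 bp between the replicates, with quartiles of 11 and 95.5 bp. Narrower peaks of 1000 to 1499 bp had a median of 73 bp, with quartiles of 26 and 192 bp (236 peaks). Peaks under 1000 bp had a median of 33 bp, but their upper quartile of 65 bp was smaller. The replicate 2 width divided by the replicate 1 width had a median of 0.99 in broad peaks and 0.97 in all narrower ones. Both edges lay within 50 bp of each other in 79 broad peaks (44.4% of 178), compared with 1654 narrower peaks (44.8% of 3691). Out of all peaks, whatever their number of replicate peaks, these were 16.4% of the 483 broad peaks, 14.6% of the narrower peaks and 14.7% of all nuclear peaks, so the broad share was near the background.

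**Figure D3:**
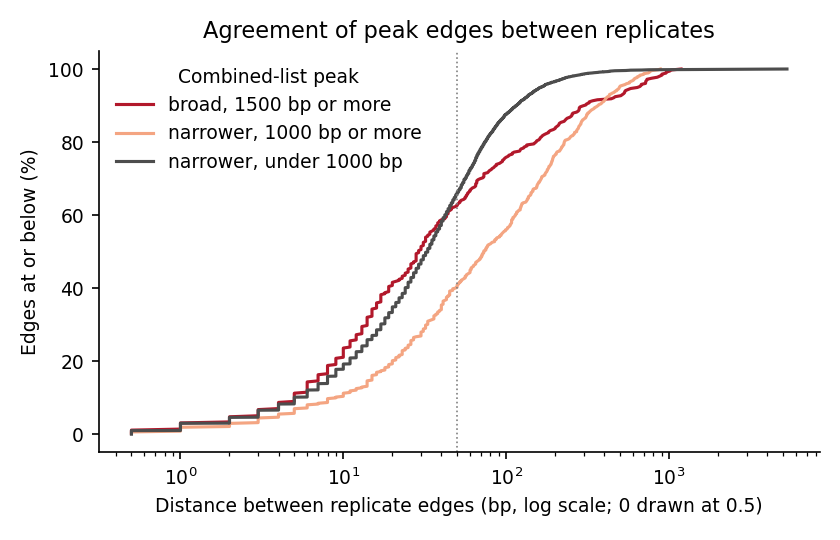
Cumulative share of peak edges (vertical axis, %) by the distance between the edge in replicate 1 and in replicate 2 (horizontal axis, bp, log scale) for combined-list peaks with exactly 1 peak in each replicate. The curve of broad peaks rises early, with a median of 29 bp, and has a long upper tail; the curve of peaks from 1000 to 1499 bp lies to the right of it, with a median of 73 bp; the dotted line marks 50 bp.

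The 79 broad peaks with matched edges lay on every nuclear chromosome, from 10 on I to 17 on II, and had a median width of 2316 bp. They included 25 peaks of 3000 bp or more. The widest outside chromosome I was on V (7915715 to 7925056), with 9390 bp in replicate 1 and 9402 bp in replicate 2. Its left edges were 10 bp apart and its right edges 22 bp apart. Another on V (3434535 to 3441240) measured 6707 bp in replicate 1 and 6708 bp in replicate 2. On IV (4416361 to 4422074) the widths were 5715 and 5752 bp, and on III (5353003 to 5358544) they were 5567 and 5561 bp. These 4 intervals were picked for their width and matched edges after the values were seen.

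Chromosomes differed in density. Chromosome IV had 94 broad peaks (5.37 per Mb), V had 109 (5.21 per Mb), II had 79 (5.17 per Mb) and III had 67 (4.86 per Mb). Chromosome I had 66 (4.38 per Mb) and the X had 68 (3.84 per Mb). The order of the narrower peaks was another one, with III first (135 per Mb), then I (131), IV (122), II (113), V (98.9) and X (87.2). The share of peaks that were broad ran from 3.22% on I (interval 2.50% to 4.08%) and 3.48% on III (2.71% to 4.39%) to 5.00% on V (4.13% to 6.003%). The intervals of I and V did not overlap, and those of III and V did. Chromosomes I and V were the lowest and highest of the 6, and the intervals treat peaks as independent, so this is no test between them. On II, IV and X the shares were 4.37%, 4.23% and 4.21%.

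**Figure D4:**
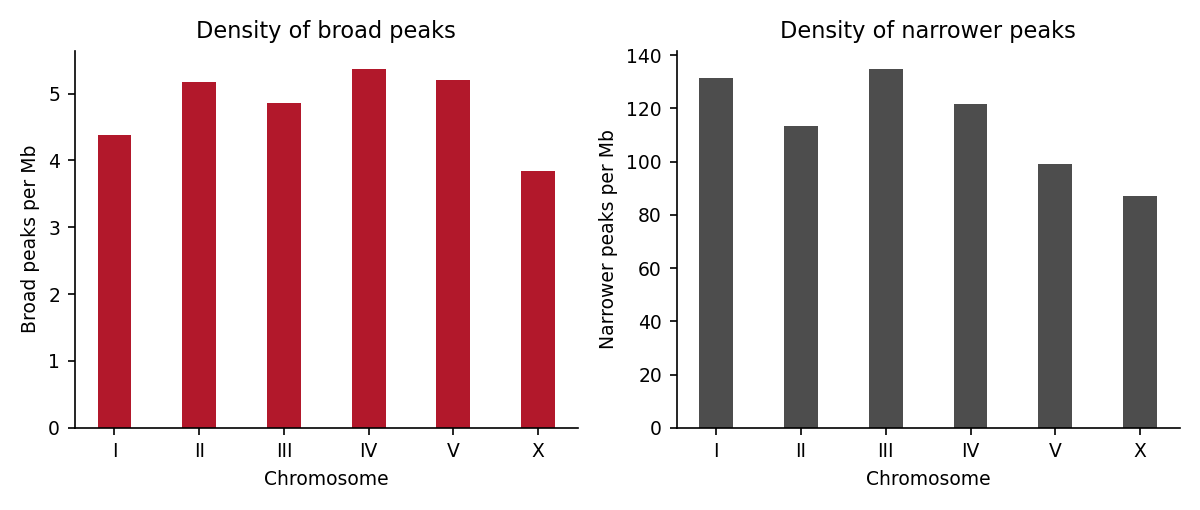
Peaks per Mb (vertical axes) of broad peaks (left) and narrower peaks (right) on each nuclear chromosome (horizontal axes). Broad peaks run from 3.84 per Mb on the X to 5.37 on IV, and narrower peaks from 87.2 on the X to 135 on III.

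The X held 14.1% of the broad peaks (interval 11.1% to 17.5%), 13.7% of the narrower peaks and 13.7% of all nuclear peaks, but 17.7% of the sequence. Its density was 0.763 times that of the autosomes for broad peaks and 0.738 times for narrower ones. Broad and narrower peaks thus had nearly the same X share. On the X, 67 of 68 broad peaks were in both replicates, and 17.3% of the peaks of 3000 bp or more lay there.

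Arms are the outer 2 of 3 equal parts of each chromosome, and a peak was placed by its midpoint. On arms lay 356 broad peaks (73.7%, interval 69.5% to 77.6%) and 7912 narrower peaks (69.9%, 69.1% to 70.8%), against 70.1% of all nuclear peaks. The broad share lay above the background by a few percentage points and its interval included the background. Density was 5.33 broad peaks per Mb on arms and 3.80 per Mb in centres, a ratio of 1.40, and the ratio of the narrower peaks was 1.16. With the outer 2 of 4 equal parts as arms, 54.0% of broad and 53.96% of narrower peaks lay there, so the difference was no longer seen. Peaks from 1500 to 2999 bp had an arm share of 76.3%. The widest class, 3000 bp or more, had 66.9%, and the class just below the threshold, 1000 to 1499 bp, had 68.2%. The arm share therefore did not go one way with width.

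By chromosome, the broad arm share ran from 70.6% on the X to 77.3% on I. It was above that of the narrower peaks on the 5 autosomes and below it on the X, where the narrower peaks had 72.0%. The right arm of IV was the densest part for broad peaks, with 42 of them and 7.20 per Mb. It held 113 narrower peaks per Mb, fewer than the left arm of IV, which had 147 narrower and 4.46 broad peaks per Mb. The right arm of V held 42 broad peaks (6.02 per Mb) and the left arm of II held 30 (5.89 per Mb). The lowest density of broad peaks was in the centre of I, with 15 (2.99 per Mb), followed by the centre of the X, with 20 (3.39 per Mb).

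Spacing was measured from edge to edge. The nearest other peak of any width lay a median of 693 bp from a broad peak, with quartiles of 154 and 3992 bp. For narrower peaks the median was 1156 bp, with quartiles of 292 and 3844 bp. Another peak lay under 1000 bp away for 271 broad peaks (56.1%, interval 51.6% to 60.6%) and 5334 narrower ones (47.1%, 46.2% to 48.1%), against 47.5% of all nuclear peaks. At a limit of 5000 bp the order turned round, with 79.1% of broad and 80.3% of narrower peaks. Peaks of 1000 to 1499 bp had a neighbour under 1000 bp away in 57.2% of cases. The larger share at that limit was thus shared by peaks just under the width threshold. Of the broad peaks, 229 (47.4%) had a narrower peak under 1000 bp away and 74 (15.3%) another broad peak.

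Most broad peaks had no other broad peak under 10 kb away, and the rest lay in runs, mainly pairs. The nearest broad neighbour lay a median of 51244 bp away, with a lower quartile of 4986 bp. Under 10 kb from another broad peak lay 140 (29.0%), in 58 runs of 2 or more, while 343 were in no run. A narrower peak lay under 10 kb from 425 broad peaks (88.0%). No share over all nuclear peaks is given at this limit, so whether 29.0% is high or low cannot be said. Of the runs, 46 held 2 broad peaks, 7 held 3 and 5 held 4 or more. Chromosome V had 14 runs, III had 12 and IV had 11. In windows of 100 kb, 340 of 1005 (33.8%) held a broad peak, 234 of them exactly 1, and the fullest held 6.

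The longest run spanned 60614 bp in the centre of IV (6668310 to 6728923). It was made of 7 broad peaks from 1643 to 18776 bp wide and 4 narrower ones. The 7 broad peaks scored from 8.31 to 23.6, which was low against the broad median of 56.4. Over all nuclear peaks the median score was 9.87 and the upper quartile 23.95. Replicate 1 split the run into 43 peaks, none wider than 4312 bp, that covered 70.4% of the span. Replicate 2 split it into 39 peaks, the widest 3549 bp, that covered 66.5%.

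The run on III spanned 47007 bp (7405225 to 7452231) with 5 broad peaks that filled 92.2% of it. Replicate 1 had 15 peaks there, the widest 8987 bp, and replicate 2 had 32, the widest 5857 bp. The run on the X (4025940 to 4056481, 30542 bp) also had 5 broad peaks. It was covered over 91.0% by 9 peaks of replicate 1 and over 95.8% by 11 peaks of replicate 2, with a widest peak of 9996 bp in replicate 2. The run on V (6070683 to 6094743, 24061 bp) had 6 broad peaks and the widest range of scores, from 24.9 to 211. There the replicates had 26 and 35 peaks, all of 2410 bp or less. The run on II (1967246 to 1986182, 18937 bp) was of another kind, with 3 broad peaks that filled 44.2% of the span and scored from 114 to 154. Replicate 1 had 6 peaks and replicate 2 had 3 in that run.

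**Figure D5:**
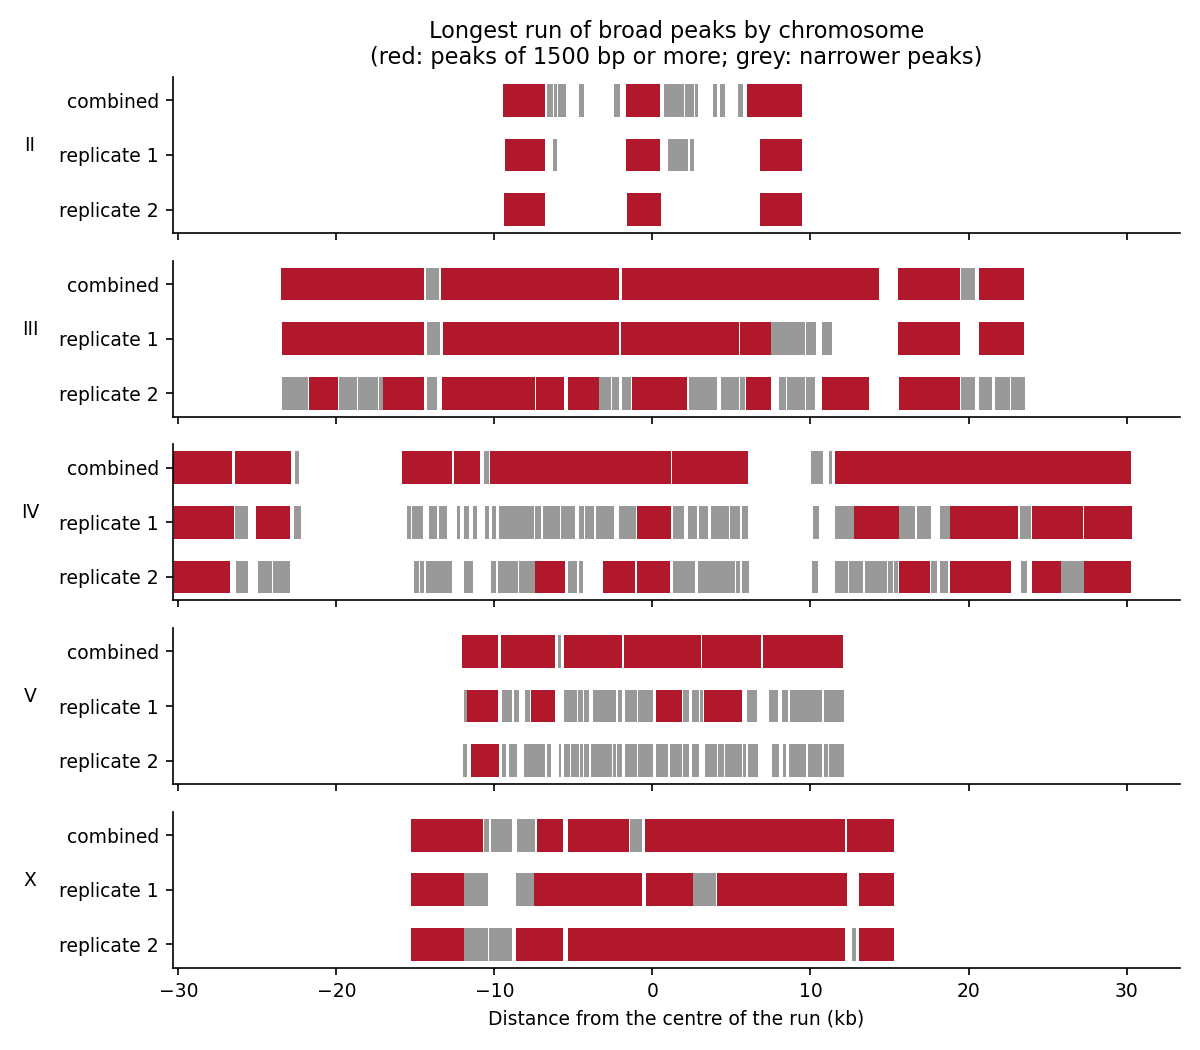
Peaks of the combined list, replicate 1 and replicate 2 (rows) in the longest run of broad peaks on II, III, IV, V and X (panels), placed by distance from the centre of the run (horizontal axis, kb). Red bars are peaks of 1500 bp or more and grey bars are narrower peaks. On IV and V the combined list has few wide bars where each replicate has 26 to 43 peaks, and on II the same wide bars recur in all lists.

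Several of the widest single intervals were split in both replicates. The widest was on IV (6710148 to 6728923), 18776 bp, with a combined score of 17.4. It was met by 10 peaks in replicate 1, which covered 94.7%, and by 15 in replicate 2, which covered 90.6%. The next on III (7426791 to 7443088) was 16298 bp, with 7 peaks in replicate 1 and 13 in replicate 2. A peak of 15173 bp lay on the right arm of III (13584086 to 13599258, score 60.6), with 8 peaks in replicate 1 and 14 in replicate 2. On the X a peak of 12645 bp (4040744 to 4053388, score 20.3) was covered over 99.7% by 3 peaks of replicate 1 and over 99.8% by 2 of replicate 2. On II the widest was 12206 bp (9812413 to 9824618, score 22.8), met by 4 peaks in replicate 1 and 7 in replicate 2. The second on IV (6688346 to 6699783) was 11438 bp wide and in pieces of at most 2158 bp in replicate 1 and 2143 bp in replicate 2. The third on III (7415381 to 7426623, 11243 bp) was part of the run on III and had 2 peaks in replicate 1 and 5 in replicate 2.

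Other wide intervals ranged from 1 peak in each replicate to many pieces. The peak of 9342 bp on V, described above for its edges, had a score of 107 and was covered completely by 1 peak in each replicate, both at a score of 3100. A second on V (10605600 to 10612511, 6912 bp, score 78.3) was likewise 1 peak in each, covered over 99.3% in replicate 1 and 100% in replicate 2. On the right arm of the X a peak of 10625 bp (16929306 to 16939930) scored 189, with 5 peaks in replicate 1 and 3 in replicate 2, and a top score of 3100 in each replicate. The widest peak of V (17384079 to 17394560, 10482 bp, score 74.3) had 3 peaks in replicate 1 and 12 in replicate 2. On II a peak of 9082 bp (3159502 to 3168583, score 42.2) was 1 peak of 9050 bp in replicate 1 and 4 peaks in replicate 2. The third on II (693547 to 699412, 5866 bp) scored 145 and reached 3100 in both replicates, with 5 peaks in replicate 1 and 1 in replicate 2. The third on IV (8575089 to 8581737, 6649 bp, score 52.3) had 3 peaks in each replicate. Over the 48 broad peaks of 5000 bp or more, scores ran from 11.5 to 225. Of these 48, 15 had 1 peak in each replicate, 22 had several in each, and 32 lay on arms. Over all nuclear peaks, 32.8% had 1 peak in each replicate and 70.1% lay on arms, so the counts of 15 and 32 were near the background.

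The broad peaks with the highest scores were mostly not the widest. The first lay on the right arm of II (15137583 to 15142981), 5399 bp wide with a score of 225. Its single peak was 5180 bp in replicate 1 and 4810 bp in replicate 2. The others were between 1693 and 2603 bp. They lay on the left arm of V (6070683 to 6072971, score 211; 6587459 to 6589248, score 197), on the left arm of III (3843697 to 3846299, score 211) and on the right arm of the X (16850607 to 16852299, score 208). All 5 met a peak with a score of 3100 in replicate 1, and in replicate 2 their best scores ran from 2494 to 3100. The first of the V pair is the left edge of the run on V.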

How the data were processed

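ZHP-3 was measured by ChIP-seq in 2 replicates, with 2 inputs. Per the file headers, positions are on WormBase WS220. Per the source column of the deposited files, the authors used MACS for the replicates and MACS v2 for the combined list. The submitters' processing notes name BWA and ce10. Caller settings and the control were not given in the sources used here. Each deposited peak has a score from the authors' caller on an unstated scale.

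Widths, overlaps from 1 bp, gaps and percentiles came from Python 3.11.15 with pandas 2.3.3, NumPy 2.4.6 and SciPy 1.17.1. Plots were made in matplotlib 3.10.9. The interval functions were tested on simulated lists. Each chromosome was taken to end with its last combined peak. Runs join broad peaks under 10 kb apart. Named regions are the 3 widest broad peaks and the longest run per chromosome, the 5 highest scores and those in neither replicate. Chromosome I peaks enter all counts, but their positions are not reported here. No WS220 genome or annotation was used here, so no genes or sequences are given. Members, lists and alternatives were chosen with earlier results of these data known.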

Additional observations from a re-analysis of the deposited data

How the results depend on the processing

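No paired analysis was possible because the peak lists used here hold no values of the input samples and the ChIP replicates are all of 1 group. The number of broad peaks followed the width limit, with 964 at 1000 bp, 276 at 2000 bp and 133 at 3000 bp, and 855 when intervals under 500 bp apart were joined first. At 1000 bp and 3000 bp the share in both replicates was 90.15% and 97.74%, against 33.01% and 37.00% of the peaks below each limit. At 3000 bp the arm share was 66.92%, below the 70.13% of peaks under 3000 bp. The mean base coverage at 3000 bp was 89.14%, against 52.07% for peaks under 3000 bp. The X share stayed within its interval under each alternative. With the outer 2 of 4 equal parts as arms, 54.04% of broad and 53.96% of narrower peaks lay on arms, so the difference at 3 parts was not seen; the cause was not tested. A neighbour was nearer than 500, 2000 and 5000 bp for 45.34%, 65.42% and 79.09% of broad peaks and 33.78%, 61.38% and 80.30% of narrower ones, so the order turned round at 5000 bp. Among the higher-scoring 50% of the list, 36.31% of broad and 26.00% of narrower peaks had a neighbour under 1000 bp, as fewer peaks were left. Requiring 50% of each peak to be covered by each replicate gave 78.05% for broad and 31.86% for narrower peaks, and 50% reciprocal overlap with a single peak gave 50.93% and 30.57%. Leaving out a replicate gave shares of 95.65% to 98.96% for broad and 43.85% to 47.94% for narrower peaks. Base coverage was then 79.08% to 86.41% for broad and 45.93% to 50.62% for narrower peaks. The median score percentile of the broad peaks was 90.65 in the combined list. For the best overlapping replicate peak the median was 92.97 in replicate 1 and 93.64 in replicate 2. The best of several pieces is another measure than a peak's own score, so these values are not directly comparable. Of alternatives added after the data were seen, edges within 25 bp left 39 of the 79 peaks with matched edges, edges within 100 bp gave 111, and a gap under 5000 bp kept 121 of the 140 peaks in runs. The unknown depth limits any reading of peaks found in 1 replicate.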
